A study of Mus musculus with 11 samples.

Results

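The small leucine-rich proteoglycans are secreted matrix proteins with a core built of leucine-rich repeats, and 9 of their genes were followed here in mouse mammary gland: Dcn, Bgn, Lum, Fmod, Prelp, Aspn, Ogn, Omd and Podn. The members were chosen by name as family genes that fibroblasts express, with earlier results of these data known. They are 9 of the 22196 genes obtained. RNA was sequenced from whole inguinal mammary glands of 11 mice, each a separate sample. The 6 Knockout mice were Tsc1-fl/fl; Adipoq-Cre-Tg/+, and the 5 Wild-Type mice were Tsc1-fl/fl; Adipoq-Cre-+/+, so that both groups carried Tsc1 alleles flanked by target sites of the recombinase Cre and the Wild-Type mice lacked the Cre transgene. The adiponectin gene promoter drives that Cre in adipocytes, so the other cells of the gland are not its target. Tsc1 is a subunit of the complex that restrains the growth kinase complex mTORC1. The glands were collected 16 days after delivery from mice on normal chow, and the day label is PND16.5. The labels do not say in so many words that the mice were lactating, and they name no litter, batch or date. Where nothing places the samples in separate litters or batches, p-values measure the spread between these samples.

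Proteoglycans of this family bind to fibrillar collagens and help set the diameter and spacing of the fibrils. Several also bind growth factors such as TGF-β or engage receptors at the cell surface, and their core proteins carry chondroitin or dermatan sulfate chains, keratan sulfate chains or no chain, depending on the member. In the mammary gland the collagenous stroma made by fibroblasts surrounds the ducts, the alveoli and the fat pad. Decorin (Dcn) and biglycan (Bgn) carry chondroitin or dermatan sulfate chains, asporin (Aspn) is their relative with a stretch of aspartate residues, and lumican (Lum), fibromodulin (Fmod) and Prelp belong to a neighbouring class. Lumican, fibromodulin and osteomodulin (Omd) can carry keratan sulfate, osteoglycin (Ogn, also called mimecan) belongs to a further class, and podocan (Podn) is a more distant relative.

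Most of the members sit next to one another in the genome (GRCm38, GENCODE M21 annotation). Dcn (ENSMUSG00000019929, chromosome 10, 97479609 to 97518143) and Lum (ENSMUSG00000036446, chromosome 10, 97565128 to 97572703) are 46984 bases apart on the same strand. Prelp (ENSMUSG00000041577, chromosome 1, 133910304 to 133921414) and Fmod (ENSMUSG00000041559, chromosome 1, 134037254 to 134048277) are 115839 bases apart on opposite strands. Aspn (ENSMUSG00000021388, chromosome 13, 49544443 to 49567565), Omd (ENSMUSG00000048368, chromosome 13, 49582462 to 49592822) and Ogn (ENSMUSG00000021390, chromosome 13, 49608046 to 49624501) follow each other on the plus strand with gaps of 14896 and 15223 bases. All 3 lie within the gene Cenpp, which is on the opposite strand. Bgn (ENSMUSG00000031375) is at 73483602 to 73495933 on chromosome X and Podn (ENSMUSG00000028600) at 108014791 to 108096445 on chromosome 4.

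The chromosome 13 trio is shown with the 250 bases upstream of each annotated start, because Omd was close to absent here while Aspn and Ogn, its neighbours on either side, were detected in every library. The windows are from RefSeq on GRCm38.p6, each is on the plus strand, each lies 5′ of its gene, and none overlaps an annotated exon. Capitals mark the letters TATAAA on either strand, the TATA box word (TTTATA when read from the opposite strand), and also GGGCGG, a word of GC boxes, on either strand. Where matches overlap, as TATAAA and TTTATA do in the Ogn window, all their letters are in capitals.
Aspn, chr13:49544193-49544442: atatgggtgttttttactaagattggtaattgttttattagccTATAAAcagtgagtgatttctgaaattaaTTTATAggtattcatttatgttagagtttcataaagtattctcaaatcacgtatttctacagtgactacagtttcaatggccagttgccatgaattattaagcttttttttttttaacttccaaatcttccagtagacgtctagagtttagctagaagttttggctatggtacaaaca
Omd, chr13:49582212-49582461: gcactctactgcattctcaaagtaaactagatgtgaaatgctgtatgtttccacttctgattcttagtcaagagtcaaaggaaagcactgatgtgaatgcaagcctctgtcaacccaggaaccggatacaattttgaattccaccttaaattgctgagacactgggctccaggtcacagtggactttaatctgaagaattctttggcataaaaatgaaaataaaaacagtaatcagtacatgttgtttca
Ogn, chr13:49607765-49608014: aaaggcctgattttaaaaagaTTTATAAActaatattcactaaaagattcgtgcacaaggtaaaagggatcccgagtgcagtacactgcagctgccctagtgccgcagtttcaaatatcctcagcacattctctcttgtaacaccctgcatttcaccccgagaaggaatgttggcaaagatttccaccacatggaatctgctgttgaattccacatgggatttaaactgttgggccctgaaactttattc
The Aspn and Ogn windows held TATAAA and the Omd window held neither word. Over the 7 members with a window in the table, 2 held TATAAA and 2, Bgn and Podn, held GGGCGG, against 12.4% and 32.7% of all 32851 windows cut to the same length. These are matches of letters within one window and say nothing about the factors that bind there.

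The libraries held 25817975 to 37894237 estimated reads each. Values per library are CPM, counts divided by library size after the TMM scaling of edgeR, and differences between genotypes are log2 fold changes, Knockout minus Wild-Type, from edgeR's quasi-likelihood test with adjustment over all 12716 genes that passed the filter on low counts. Tsc1 had a Knockout mean of 10.1 CPM ± 1.33 (SD, n = 6) against 10.7 ± 1.11 (SD, n = 5) for Wild-Type (log2 fold change -0.09 ± 0.11 SE, edgeR adjusted p = 0.772). Its level in adipocytes alone was not measured. Skeletal muscle transcripts set 4 libraries apart. The summed level of 8 muscle markers was 2109 CPM for Knockout 1, 318 for Knockout 2, 204 for Wild-Type 1 and 144 for Wild-Type 4, and from 1.73 to 39.2 CPM in the other libraries. The fibroblast markers, among them Pdgfra, Dpt and the fibril collagens, were present in every library, at summed levels of 181 to 420.5 CPM in Wild-Type against 244 to 616 CPM for Knockout. Most of each sum was Col1a1, Col1a2 and Col3a1, at 159 to 403 CPM in Wild-Type and 229 to 580 CPM for Knockout.

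Decorin dominated the family. Levels of different genes were compared as TPM, which accounts for transcript length. Dcn averaged 21.4 TPM ± 7.45 (SD, n = 11), Bgn 4.71 ± 1.26 and Lum 3.68 ± 1.68. Prelp followed at 1.58 TPM ± 0.320 (SD, n = 11). A group of 3 genes lay close together below it, with Fmod at 0.888 TPM ± 0.466, Ogn at 0.847 ± 0.392 and Aspn at 0.837 ± 0.306. Podn was at 0.392 TPM ± 0.164 and Omd, the lowest, at 0.0321 ± 0.0338 (SD, n = 11). The summed TPM of the members was 61.8% ± 2.92 (SD, n = 11) decorin.

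Neighbours in this order were compared within each library. Dcn exceeded Bgn in 11 of 11 libraries, on average 4.45-fold, Lum exceeded Prelp 2.18-fold in 11 of 11, and Prelp exceeded Fmod 2.04-fold in 11 of 11. For each of these 3 steps an exact sign-flip permutation test (two-sided) gave p = 0.000977, the smallest it can give, and p = 0.00228 after adjustment over the 7 neighbour comparisons. Bgn was above Lum in 10 of 11 libraries (1.35-fold, exact permutation test, p = 0.0127, adjusted p = 0.0178) and Aspn above Podn in 10 of 11 (2.25-fold, exact permutation test, p = 0.00293, adjusted p = 0.00513). Both steps pool the genotypes. In Wild-Type the mean TPM was 4.55 for Bgn and 2.54 for Lum, and 0.686 for Aspn and 0.492 for Podn. In Knockout it was 4.84 for Bgn and 4.62 for Lum, and 0.962 for Aspn and 0.308 for Podn. Fmod, Ogn and Aspn could not be ranked, since Fmod was above Ogn in 6 of 11 libraries (exact permutation test, adjusted p = 0.932) and Ogn above Aspn in 5 of 11 (exact permutation test, adjusted p = 0.833). In Wild-Type 4, 39.9% of the Fmod TPM came from 1.66 estimated reads given to the short transcript Fmod-202. Fmod-201 alone was at 0.622 TPM there, below Ogn at 0.763 TPM. Omd was set apart from these tests because 3 of its libraries had no count.

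**Figure D1:**
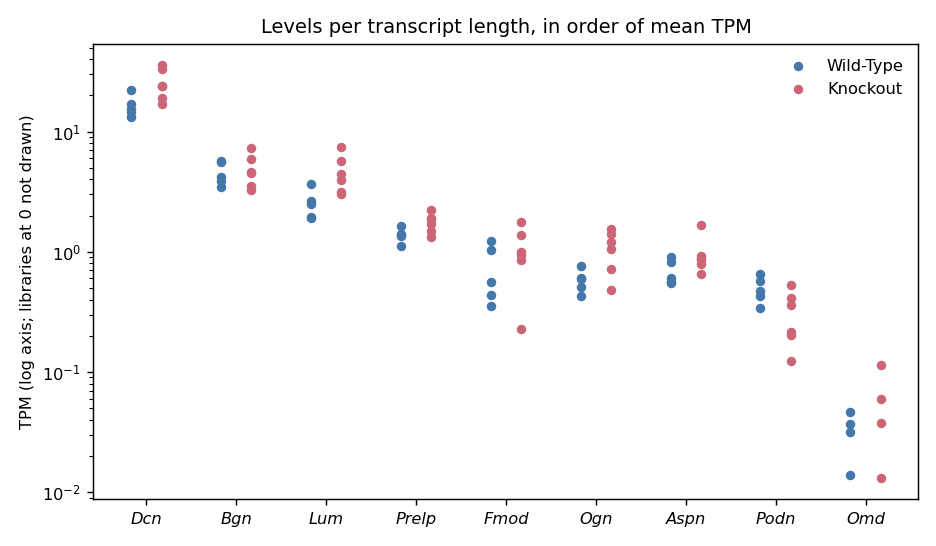
TPM (log axis) of the 9 members in every library, in order of mean TPM, with Wild-Type libraries in blue and Knockout libraries in red and the libraries at 0 left out. Dcn is at the top at 13.1 to 36.0 TPM, Fmod, Ogn and Aspn share one range, and Omd lies at the bottom, at 0.114 TPM or below.

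Osteomodulin was close to absent, at 3, 7, 0, 5, 0 and 1 counts in Knockout 1 to 6 and at 3, 3, 3, 1 and 0 counts in Wild-Type 1 to 5. In the libraries with no count, a count of 0 allows up to 3 counts, which is 0.0991 CPM for Knockout 3, 0.110 for Knockout 5 and 0.105 for Wild-Type 5 (counting error only). The gene did not pass the filter on low counts and no comparison of genotypes was made for it. Its neighbours on chromosome 13 had 34 to 89 counts (Aspn) and 21 to 72 counts (Ogn) per library. Asporin and osteoglycin are known from connective tissue at large and osteomodulin chiefly from bone and teeth, and of 6 cartilage and bone markers Ibsp was at 0 in all libraries and Acan, Col2a1, Bglap and Sp7 were at 0 in some. The sixth, Sox9, which epithelial cells also express, had a Wild-Type range of 14.1 to 48.1 CPM and a Knockout range of 18.4 to 49.6 CPM and made up most of the list's sum of 14.2 to 49.8 CPM.

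The comparison of genotypes asks whether matrix genes of the stroma differ in the whole gland between mice with and without the Adipoq-Cre transgene. Of the 9 members, 8 were tested, and 0 of 8 passed an adjusted p of 0.05 in edgeR, where 0.055% of all genes tested did (7 genes). DESeq2, limma-voom and all other settings tried also called 0 members. Unadjusted p was under 0.05 for 4 of the 8, namely Lum, Ogn and Dcn, which had higher estimates in Knockout, and Podn, which had a lower one; over all genes tested 12.4% had such a p. The count was 3 of 8 with limma-voom, 1 of 8 with the replicate block, and 2 of 8 without Knockout 2 alone or Wild-Type 1 alone. Without the 4 libraries with the most muscle transcripts, a setting chosen after seeing the data, the members with such a p were 2 of 8, Bgn and Podn, both with lower estimates, where 15.7% of all genes had one. In that setting 5 of 8 estimates were above 0, against 51.1% over all genes, and the median was 0.09. With all libraries, the estimates of 6 of 8 members were above 0, as were those of 48.3% of all genes, and their median log2 fold change was 0.31 (0.18 without Knockout 2 alone), against -0.01 over all genes. None of the 8 members had groups that did not overlap in CPM, which was the case for 1.32% of all genes tested. In whole tissue, fewer cells of a type and less RNA per cell cannot be told apart.

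Lumican, which binds fibrillar collagen and is needed for the transparency of the cornea, was at 4.06, 3.84, 5.81, 3.98 and 6.81 CPM in Wild-Type 1 to 5. In the Knockout libraries it ran from 5.32 CPM over a median of 7.49 to 10.1 CPM. The 4 highest Knockout libraries exceeded every Wild-Type library, while Knockout 3 and Knockout 5 lay within the Wild-Type range. The Wild-Type mean was 4.90 CPM ± 1.34 (SD, n = 5), that of Knockout was 7.47 CPM ± 1.81 (SD, n = 6), and the log2 fold change came to 0.61 ± 0.20 (SE; edgeR adjusted p = 0.300), with 95% limits of 0.21 and 1.00. Over the alternatives its adjusted p ran from 0.129 with DESeq2 to 0.637.

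Decorin, which binds collagen and TGF-β, lay next to it in the genome and in its pattern. Its levels were 32.6, 40.5, 37.8, 29.1 and 49.2 CPM in Wild-Type 1 to 5, and from 36.8 over a median of 50.1 to 60.2 CPM in Knockout. Knockout 1, Knockout 2 and Knockout 4 were above every Wild-Type library, and the other 3 lay within the Wild-Type range. The log2 fold change came to 0.37 ± 0.16 (SE; edgeR adjusted p = 0.373), from 37.8 CPM ± 7.73 (SD, n = 5) to 48.8 CPM ± 9.41 (SD, n = 6).

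The highest 2 Knockout libraries for both genes, Knockout 1 and Knockout 2, are also those with the most skeletal muscle transcripts, and the lowest Wild-Type library for decorin, Wild-Type 4, is another of the 4 set apart above. Without these 4 libraries the log2 fold change was 0.25 for Lum (edgeR adjusted p = 0.637) and 0.07 for Dcn (edgeR adjusted p = 0.884), on 4 Knockout and 3 Wild-Type libraries. The part that muscle or its connective tissue plays in these levels was not tested. Summed tendon and fascia markers were low in every library, within 3.95 to 6.80 CPM for Knockout and within 4.98 to 6.22 CPM for Wild-Type.

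Osteoglycin, a further collagen-binding member, was at 0.770, 0.877, 1.13, 1.06 and 0.948 CPM in Wild-Type 1 to 5. The Knockout libraries spread wider, from 0.760 over a median of 1.65 to 2.05 CPM, with 4 of them above every Wild-Type library, Knockout 5 inside the Wild-Type range and Knockout 3 just below it. The means were 1.48 CPM ± 0.476 (SD, n = 6) and 0.958 CPM ± 0.144 (SD, n = 5), and the log2 fold change came to 0.63 ± 0.24 (SE; edgeR adjusted p = 0.350), from 21 to 72 counts in a library. Without the 4 libraries with the most muscle transcripts it was 0.42 (edgeR adjusted p = 0.582).

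Podocan had the one estimate well below 0. It is a larger member, studied as a restraint on the proliferation of smooth muscle cells. The Wild-Type libraries were at 3.33, 2.88, 1.85, 1.97 and 1.65 CPM and the Knockout libraries ran from 0.595 over a median of 1.13 to 2.08 CPM. Wild-Type 1 and Wild-Type 2 exceeded every Knockout library, 4 Knockout libraries were below every Wild-Type library, and Knockout 2 and Knockout 5 overlapped with the lower Wild-Type libraries. The Wild-Type mean was 2.34 CPM ± 0.727 (SD, n = 5) and that of Knockout 1.25 CPM ± 0.552 (SD, n = 6). The log2 fold change came to -0.91 ± 0.30 (SE; edgeR adjusted p = 0.302), with 95% limits of -1.50 and -0.31, from 18 to 95 counts in a library. Over the alternatives it ran from -1.11 to -0.74, with adjusted p between 0.146 with DESeq2 and 0.575.

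The listed Podn transcripts were 3, and Podn-203 held a median of 94.4% of the gene's TPM, with 67.4% at the lowest. Podn overlaps Scp2 and Gm23354 on the same strand and Mir6397 on the opposite one, and 0.0981% of its 31-base words occur in transcripts of another gene.

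Biglycan, the closest relative of decorin, had an estimate of the opposite sign. Its levels were 9.07, 10.5, 15.2, 7.93 and 13.5 CPM in Wild-Type 1 to 5, and from 7.56 over a median of 9.77 to 14.2 CPM in Knockout. The groups overlapped nearly throughout, with Knockout 3 and Knockout 5 just below the lowest Wild-Type library and Wild-Type 3 above every Knockout library. The log2 fold change came to -0.17 ± 0.20 (SE; edgeR adjusted p = 0.755), with 95% limits of -0.55 and 0.21. Without the 4 libraries with the most muscle transcripts it was -0.54 (edgeR adjusted p = 0.188), the smallest adjusted p of any member in that setting. With 1 library left out it ran from -0.29 (without Knockout 2) to -0.038 (without Wild-Type 3).

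Fibromodulin, Prelp and asporin had estimates smaller than or close to their standard errors. Fmod, which binds collagen at a site shared with lumican, was at 1.26, 0.961, 1.66, 1.43 and 3.16 CPM in Wild-Type and from 0.551 over a median of 2.47 to 3.18 CPM in Knockout (log2 fold change 0.42 ± 0.40 SE; edgeR adjusted p = 0.696). Its lowest library was Knockout 5 and its highest Wild-Type library, Wild-Type 5, nearly matched the highest Knockout library. Prelp, which anchors basement membranes to the matrix below, varied least relative to its mean over all 11 libraries. It lay within 3.01 to 4.47 CPM in Wild-Type and 3.37 to 4.71 CPM for Knockout (log2 fold change 0.11 ± 0.14 SE, edgeR adjusted p = 0.790). Without the 4 libraries with the most muscle transcripts it was at -0.036 (log2), and Fmod and Aspn were at 0.17 and 0.12. Aspn, which binds TGF-β and collagen, had 1.19 to 2.10 CPM in Wild-Type and 1.32 to 3.04 CPM under Knockout (log2 fold change 0.25 ± 0.23 SE; edgeR adjusted p = 0.696). Its highest library was Knockout 2, without which the estimate was 0.060 (edgeR adjusted p = 0.931). With 1 library left out at a time, the log2 estimate of Fmod ran from 0.28 (without Wild-Type 2) to 0.77 (without Wild-Type 5) and that of Prelp from 0.045 (without Wild-Type 4) to 0.18 (without Wild-Type 2). Of the 31-base words of Prelp 29.4% also occur in Gm15851, a non-coding gene on the opposite strand, and whether the counting used strand is not given in the sources used here, so that the Prelp value is uncertain.

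**Figure D2:**
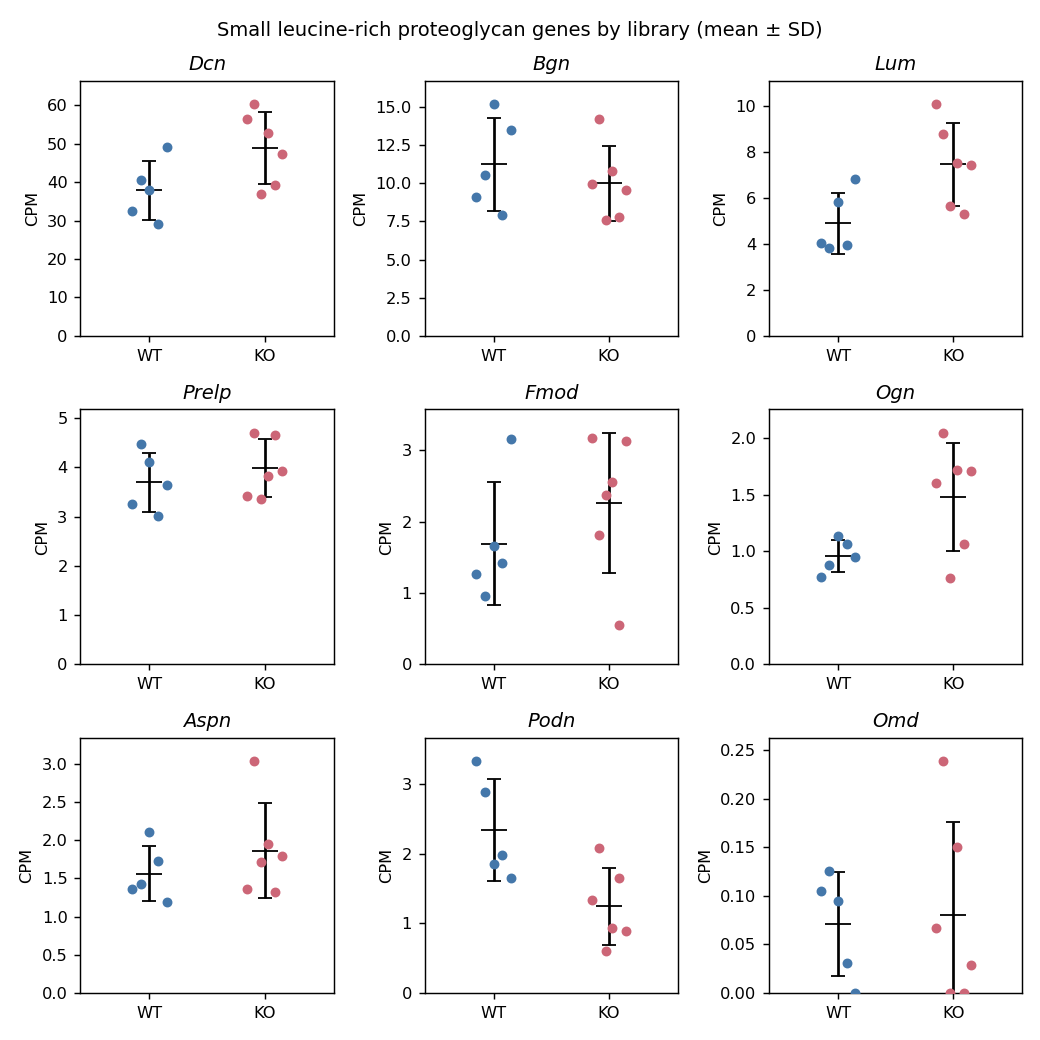
CPM of each member in the Wild-Type (WT, blue) and Knockout (KO, red) libraries, 1 point per library, with the mean and SD in black and axes that start at 0. The groups overlap in all 9 panels, with 4 Knockout libraries above every Wild-Type library for Lum and Ogn and 4 below every Wild-Type library for Podn.

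The balance between members was then described within libraries. In biglycan over decorin the groups did not overlap, since the ratio of CPM values was 0.278, 0.260, 0.401, 0.272 and 0.275 in Wild-Type 1 to 5 and from 0.176 to 0.236 in the Knockout libraries. The mean log2 ratio differed by -0.53, which is 1.44-fold lower in Knockout. Of all genes tested, 1.93% had a ratio to Dcn that was lower in Knockout without overlap, in a comparison where the median gene had a difference of -0.37, about minus the log2 fold change of Dcn itself. Adjusted over all genes, the exact permutation p for Bgn was 0.190, and this ratio was chosen after its values were seen. For biglycan over lumican the groups did not overlap either, at 1.98 to 2.74 in Wild-Type and 0.987 to 1.62 in Knockout, a log2 difference of -0.77 (exact permutation test, p = 0.0888 after adjustment over all genes), where 3.24% of all genes had such a ratio to Lum and the median gene had a difference of -0.61. As a share of the summed TPM of the members, biglycan was at 14.8% to 20.9% in Wild-Type and 10.6% to 13.7% in Knockout. The share of lumican did not overlap either and went the other way, at 7.18% to 10.30% in Wild-Type and 10.31% to 13.4% in Knockout. Decorin and lumican are parts of that sum, so these shares largely repeat the ratios above. They were not tested or set against other genes.

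Leaving out any 1 library kept the genotype difference in the log2 ratio of Bgn to Dcn, Knockout minus Wild-Type, between -0.57 and -0.42, and without the 4 libraries with the most muscle transcripts this difference was -0.59. Podocan over decorin was at 0.102, 0.0712, 0.0490, 0.0678 and 0.0335 in Wild-Type 1 to 5 and from 0.0162 to 0.0421 in Knockout, so that Wild-Type 5 overlapped with the Knockout libraries (log2 difference -1.30; exact permutation test, p = 0.198 after adjustment over all genes). Lumican over decorin overlapped widely, at 0.0949 to 0.154 in Wild-Type and 0.136 to 0.179 in Knockout.

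**Figure D3:**
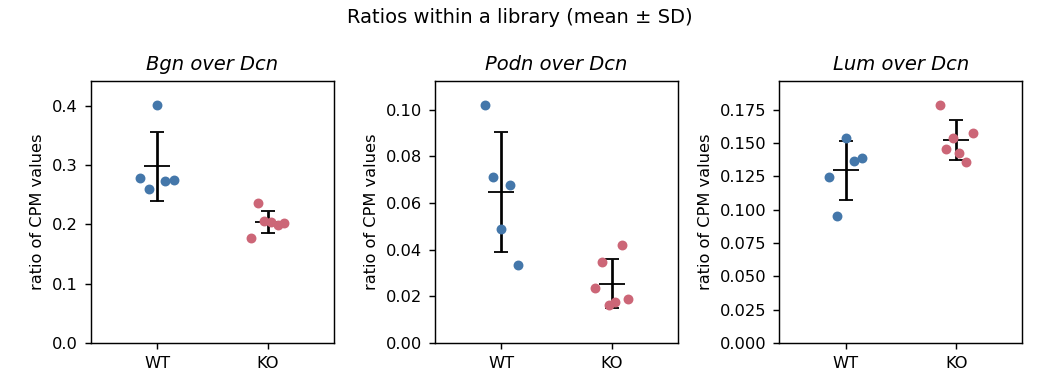
Ratios of CPM values within each library, for Bgn over Dcn, Podn over Dcn and Lum over Dcn, with 1 point per library and the mean and SD of each genotype in black. The Bgn over Dcn points separate at 0.236 against 0.260, while the points of the other ratios overlap.

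The members bind fibrillar collagen, so each was also set against the summed CPM of Col1a1, Col1a2 and Col3a1, the main fibril collagen chains. The collagen sum itself was within 159 to 403 CPM in Wild-Type and within 229 to 580.4 CPM for Knockout, a log2 difference of 0.36 (exact permutation test, two-sided, p = 0.275). Against it, Bgn had a log2 difference of -0.52 (exact permutation test, two-sided, p = 0.0130) and Podn one of -1.34 (exact permutation test, two-sided, p = 0.0173). The same ratio computed for all genes gave an adjusted p of 0.600 for Bgn and for Podn (exact permutation tests), so neither passed the threshold. The other 6 members differed by -0.25 (Prelp) to 0.25 (Lum), with exact permutation p-values of 0.160 or more, and the median gene by -0.37. Of these differences, that of Prelp was -0.41 without Wild-Type 5 and -0.0012 without Wild-Type 2, and that of Ogn, 0.21 with all libraries, was 0.050 and 0.36 without the same libraries. For decorin the log2 ratio to the collagens differed by 0.01 between the genotype means but spread widely within them (SD 0.24, n = 6, for Knockout and 0.51, n = 5, for Wild-Type). A second denominator was the summed CPM of the fibroblast genes Pdgfra, Pdgfrb, Dpt and Fbln1, from 9.18 to 13.3 CPM (Wild-Type) and from 8.59 to 18.9 CPM (Knockout). Against it, two-sided exact permutation tests gave p = 0.00649 for Podn (log2 difference -1.05), 0.0238 for Lum (0.54), 0.0260 for Ogn (0.50) and 0.0411 for Dcn (0.30), while Bgn at -0.23 had p = 0.128 (exact permutation test). Computed for all genes, this ratio gave a median difference of -0.08 and an adjusted p of 1.00 for each of the 8 members (exact permutation tests).

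Variation between libraries was partly shared. Across the 11 libraries, Lum and Dcn had the highest correlation of the 28 member pairs, with Pearson's r = 0.89 on log2 CPM (permutation p = 0.000520, adjusted over the pairs 0.0146) and Spearman's rho = 0.82 (permutation p = 0.00354, adjusted 0.0748). Their r was 0.93 within the Knockout and 0.71 within the Wild-Type libraries, and 0.97 without the 2 libraries farthest from the median of lumican. It was the 1 pair of 28 past an adjusted p of 0.05. Lum with Ogn (r = 0.78) and Dcn with Ogn (r = 0.76) came next, with permutation p-values of 0.00612 and 0.00881, each 0.0822 after adjustment (rho = 0.75 and 0.71, adjusted 0.104 and 0.126). Within the genotypes r of Lum and Ogn was 0.80 (Knockout) and 0.40 (Wild-Type), and that of Dcn and Ogn was 0.93 (Knockout) and -0.04 (Wild-Type). Without the 2 libraries farthest from the median of the first gene, r was 0.76 and 0.60. Between 22 of 28 pairs r was above 0, with a median of 0.33.

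Podn had r below 0 with 5 of 7 other members, lowest with Fmod at -0.57 (permutation p = 0.0703, adjusted 0.328; rho = -0.66, adjusted 0.172; r = -0.68 without the 2 farthest libraries). Within the Knockout libraries r of Podn was above 0 with 6 of 7 members, from 0.25 (Aspn) to 0.77 (Prelp), and at -0.50 with Fmod, and within the Wild-Type libraries it was 0.04 with Prelp and between -0.81 and -0.24 with the other 6, so that of the 5 pooled values below 0 that with Fmod alone had the same sign within both genotypes. The closest relatives Dcn and Bgn were at r = 0.53 over all libraries (permutation p = 0.0983, adjusted 0.380; rho = 0.57, adjusted 0.285), against 0.92 within the Knockout and 0.76 within the Wild-Type libraries. Among the other neighbours in the genome, r was 0.60 for Ogn and Aspn (permutation p = 0.0480, adjusted 0.269; rho = 0.55, adjusted 0.285) and -0.40 for Fmod and Prelp (permutation p = 0.227, adjusted 0.429; rho = -0.24, adjusted 0.644). Without the 2 farthest libraries these became 0.20 and 0.17. Within the genotypes r of Ogn and Aspn was 0.52 (Knockout) and 0.74 (Wild-Type), and that of Fmod and Prelp was -0.71 (Knockout) and -0.17 (Wild-Type). Whether these values differ from each other was not tested.

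**Figure D4:**
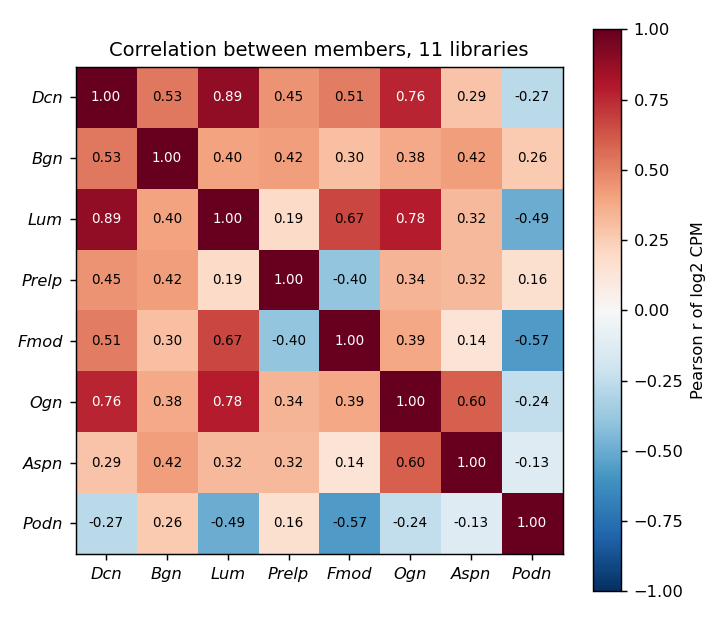
Pearson r of log2 CPM across the 11 libraries for every pair of the 8 tested members, in order of mean TPM, on a colour scale from -1 (blue) to 1 (red). The darkest square off the diagonal is Lum with Dcn at 0.89, and the blue squares lie in the row of Podn and at Fmod with Prelp.

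The mean of the 8 centred member profiles ran from -0.30 in Knockout 3 and Knockout 5 to 0.48 in Knockout 2. The 10 other genes closest to it over the 11 libraries were Lama2 (r = 0.97), Col6a1 and Col6a3 (0.93 each), Dpt (0.92), Col1a2 (0.91), Fkbp9, Col5a1 and Col6a2 (0.90 each), Col18a1 (0.89) and Smoc2 (0.88). Of these, Lama2 encodes a chain of the laminin around muscle and nerve, the Col6 genes encode the chains of collagen VI, and Dpt encodes dermatopontin, which binds decorin. They were ranked by r over all genes tested and r is given as a description. The edgeR log2 fold changes of these 10 lay between 0.05 and 0.35. Among the members themselves, Dcn (0.85), Ogn (0.82) and Lum (0.80) were closest to the mean profile and Podn (-0.04) farthest, though each member is part of that mean.

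Genes that work with the members were taken from lists by role. Of 18 genes of the fibril matrix 16 had estimates above 0 (median log2 fold change 0.25), 1 had an unadjusted p under 0.05 and 0 passed the adjusted threshold in edgeR. Without Knockout 2 alone 11 of 18 estimates were above 0 and the median was 0.037, without Wild-Type 2 alone 14 of 18 with a median of 0.14, and without Knockout 1 alone 16 of 18 with a median of 0.23. Without the 4 libraries with the most muscle transcripts 5 of 18 were above 0 and 13 below, with a median of -0.11. The smallest p-values belonged to Loxl1, a collagen and elastin cross-linking enzyme, at 0.62 ± 0.23 (log2, SE; edgeR adjusted p = 0.339), Col5a2 at 0.38 ± 0.18 and Fbn1, the fibrillin gene, at 0.59 ± 0.32. Loxl1 had a Wild-Type range of 2.05 to 5.21 CPM and a Knockout range of 3.57 to 6.99 CPM, which overlap.

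The enzymes that build and sulfate the chondroitin and dermatan chains had estimates on both sides of 0, with 10 of 18 above it, a median log2 fold change of 0.02 and 0 past the adjusted threshold. Csgalnact2, which starts chondroitin chains, had a Wild-Type range of 7.60 to 9.99 CPM and a Knockout range of 9.69 to 11.9 CPM (0.28 ± 0.09 log2, SE; edgeR adjusted p = 0.299). Csgalnact1 was at 0.67 ± 0.34 and Dsel, a dermatan sulfate epimerase, at 0.21 ± 0.15 (log2, SE). Of 6 keratan sulfate enzymes 3 were tested, all 3 with estimates below 0. They were Chst2 at -0.48 ± 0.22 (log2, SE; edgeR adjusted p = 0.396), B4galt4 at -0.28 ± 0.17 and Chst1 at -0.01 ± 0.17. Among genes that sulfate tyrosines or trim the core proteins 4 of 6 were tested and 2 had estimates above 0. Bmp1, the protease that removes the propeptides of biglycan and of procollagen, was at 0.28 ± 0.10 (log2, SE; edgeR adjusted p = 0.313), but at -0.071 with the transcript length offset and at -0.0052 with the authors' normalized values. Tpst2 was at -1.10 ± 0.55 on at most 0.919 CPM, and Tpst1 at -0.13 ± 0.16.

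Of 12 binding partners and receptors 9 had estimates above 0, with 3 at an unadjusted p under 0.05 and 0 past the adjusted threshold in edgeR (median log2 fold change 0.21). Egfr, a receptor that decorin binds, had ranges of 8.73 to 10.3 CPM (Wild-Type) and 10.2 to 16.7 CPM (Knockout) (0.43 ± 0.12 log2, SE; edgeR adjusted p = 0.269). Tgfb3, a growth factor of the TGF-β family, had means of 12.4 CPM ± 3.54 (SD, n = 5; Wild-Type) and 25.1 CPM ± 12.7 (SD, n = 6; Knockout), at 1.02 ± 0.34 (log2, SE; edgeR adjusted p = 0.310). Over the alternatives, the adjusted p ran from 0.0907 to 0.575 for Egfr and from 0.0714 to 0.604 for Tgfb3. Tlr2, a receptor through which free biglycan signals, was at 0.33 ± 0.15 (log2, SE; edgeR adjusted p = 0.394). Of 9 more distant family genes, 3 were tested and 1 had an estimate above 0: Tsku at -0.36 ± 0.30, Chadl at 0.20 ± 0.28 and Ecm2 at -0.11 ± 0.22 (log2, SE). The estimates of Chadl, Ecm2, Chst1 and Tpst1 turned sign in at least 1 alternative. The other 6 of them, Kera, Epyc, Optc, Chad, Nyx and Podnl1, did not pass the filter on low counts and had at most 23 counts in any library.

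**Figure D5:**
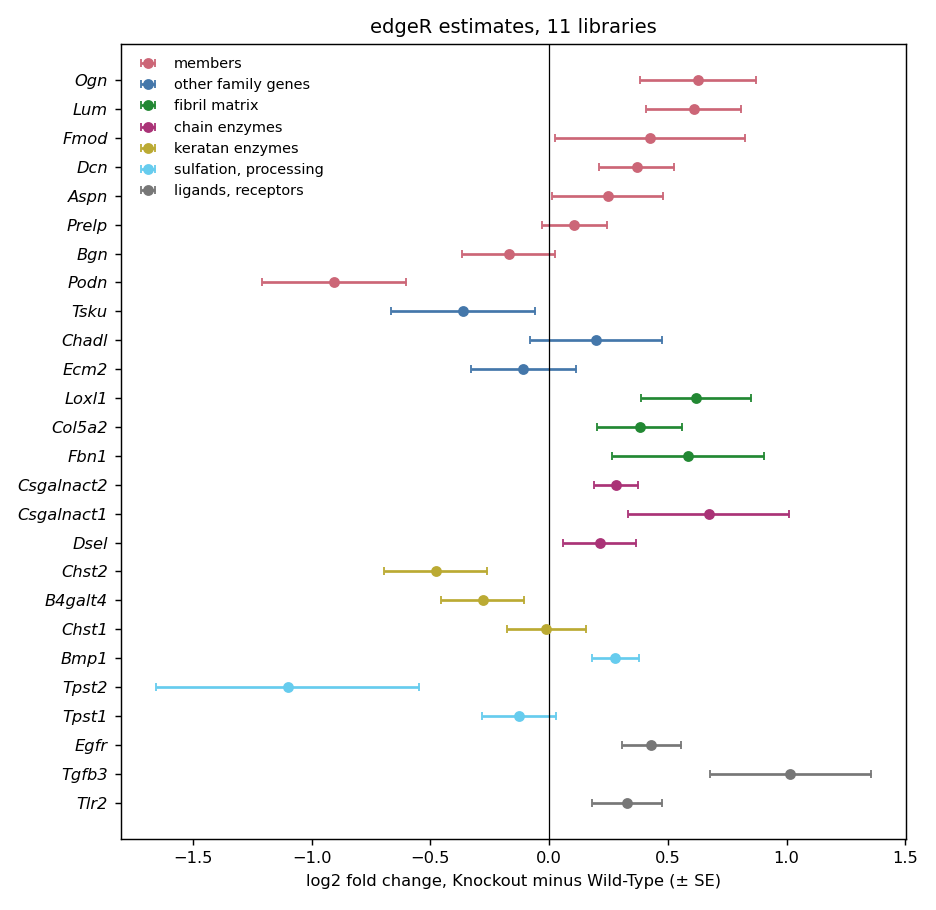
Log2 fold changes, Knockout minus Wild-Type, with their standard errors from edgeR, for the 8 tested members and the 3 genes with the smallest p-values of each pathway list, coloured by list. Members run from 0.63 (Ogn) to -0.91 (Podn), and no gene in the plot passed the adjusted threshold.

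Markers of other cell types are given beside these values, and 0 markers of any list passed the adjusted threshold in edgeR. Summed adipocyte markers had ranges of 729 to 1078 CPM (Wild-Type) and 1220 to 1727 CPM (Knockout), with no overlap. Of single genes tested, 1.32% had groups that did not overlap. Of these markers 7 of 8 had higher estimates in Knockout, as did 48.3% of all genes. DESeq2 called 3 of the 8 and 135 of all 14058 genes, and limma on the authors' normalized values 1 of the 8 and 7 of all 12715. Adipocytes are the cells the Cre targets, and whether the transgene has a part in these levels was not tested. The 15 milk protein genes summed to between 608020 and 858430 CPM in Wild-Type and between 510740 and 705190 CPM under Knockout, with 13 of 15 estimates lower in Knockout, and DESeq2 called 1 of the 15. With those genes taken out of the counts before filtering and scaling, 12680 genes were tested. In that setting 6 of 8 members again had estimates above 0 and 0 passed the adjusted threshold in edgeR. Summed B cell markers were at 49.7 CPM in Wild-Type 2, 63.8 CPM in Wild-Type 5, 14.2 CPM in Wild-Type 4 and 12.8 CPM in Knockout 1, and at most 3.96 CPM elsewhere. All 6 myoepithelial markers had estimates above 0 (median log2 fold change 0.28, and 0.21 without the 4 libraries with the most muscle transcripts), 2 of them at an unadjusted p under 0.05, and their sums overlapped, with a Wild-Type range of 364 to 658 CPM and a Knockout range of 455 to 634 CPM. Fibroblast markers had 7 of 10 estimates higher in Knockout, with a median log2 fold change of 0.32 beside the 0.31 of the members. Without Knockout 2 alone these medians were 0.13 and 0.18, and without Wild-Type 1 or Wild-Type 2 alone that of the fibroblast markers was 0.21. Without the 4 libraries with the most muscle transcripts 2 of 10 had estimates above 0, with a median of -0.11 beside the 0.09 of the members. The part of cell composition in the members' values was not tested.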

How the data were processed

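RNA of 11 whole inguinal mammary glands (6 Knockout, 5 Wild-Type, grouped by the sample titles) was made into directional libraries, per the labels' protocols. The submitters' processing notes name Salmon 1.3.0, DESeq2 1.28.1 and the build GRCm38.p6. Per the file headers, each deposited table gave a transcript's length, effective length, TPM and estimated count; the listed lengths of the member transcripts equalled GENCODE M21 coding lengths (Podn-205 by 2 bases more), so reads from untranslated regions were not counted for them. The authors also deposited a gene table of normalized values, a signal on their own scale, used here for 1 alternative. Estimated counts were summed per gene (GENCODE M21 transcripts; 752 of 58204 listed transcripts, with 0.195% to 0.265% of reads, had no match) and rounded to whole numbers, which left 22196 genes. The edgeR function filterByExpr kept 12716 genes and removed at most 0.0698% of the counts of a library.

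Genotypes were compared with the quasi-likelihood F test of edgeR 4.0.16 (R 4.3.3; robust, TMM scaling, genotype as sole term) with Benjamini-Hochberg adjustment over all genes tested and a threshold of 0.05. Log2 CPM used a prior count of 2 in correlations and ratios over all genes. Ratios were compared by exact two-sided permutation of the genotype labels (462 arrangements), TPM neighbours by sign flips (2048), and correlations with 100000 permutations (SciPy 1.17.1). The smallest p-values of the first 2 are 0.00216 and 0.000977. Deposited TPM served to compare levels between genes and to give shares of the members' sum or of a gene's transcripts. Intervals for fold changes are 95% and limits for a count of 0 are 3 counts. The scripts were tested on simulated data.

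Genes were named by a rule: all members, Tsc1, from each of 6 pathway lists the 3 genes with the smallest p, and the 10 genes whose profile was closest to the members' mean. Members and lists were chosen with earlier results of these data known. Replicate numbers were not treated as pairs. Alternatives were DESeq2 1.42.0, limma 3.58.1, other scalings and filters, a transcript length offset, a replicate block and each library left out. The comparison without the 4 libraries with the most skeletal muscle transcripts and the ratios to Dcn and Lum were chosen after seeing the data.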

Additional observations from a re-analysis of the deposited data

Results flagged for a closer look

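In Aspn, Knockout 2 lay far from the other Knockout libraries, at 3.04 CPM against 1.32 to 1.95 CPM. A single library standing apart was looked for in 18 sets of values, the CPM of 9 members in each genotype, where chance gives about 1 in 20. Knockout 2 also had the highest summed fibroblast markers, at 616 CPM, of which Col1a1, Col1a2 and Col3a1 made up 580 CPM. Its summed skeletal muscle markers were at 318 CPM. Without Knockout 2 the log2 fold change of Aspn was 0.060, against 0.25 with it. The part of these transcripts in the Aspn value was not tested.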

How the results depend on the processing

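No member passed the adjusted threshold in any setting, and of the 176 log2 fold changes of members under the alternatives 175 kept their direction. The exception was Prelp, at -0.036 without the 4 libraries with the most skeletal muscle transcripts. In that setting the genotype difference in the log2 ratio of Podn to Dcn was -1.12 (exact permutation test, p = 0.0857). The number of all genes past the threshold, 7 in the main test, was 135 with DESeq2 (81 higher, 54 lower), 23 without the 4 libraries with the most muscle transcripts, 0 with the replicate block and from 0 to 28 with 1 library left out (0 without Knockout 3 or Knockout 6, 2 without Knockout 1 or Wild-Type 3, 13 without Wild-Type 1 or Wild-Type 5, 14 without Wild-Type 4 and 28 without Knockout 2). The cause was not tested. Deviations from the group means correlated between libraries of the same replicate number at r of -0.02, -0.10, 0.19, -0.22 and -0.21. These values were not set against differently numbered libraries, so they cannot say whether the numbers stand for pairs. With the block, Lum was at 0.61 (edgeR adjusted p = 0.625) and 0 members were called. Member pairs past the adjusted threshold were 3 in place of 1 once genotype means were taken out. With the summed CPM of Pdgfra, Pdgfrb, Dpt and Fbln1 in place of the collagens, the genotype difference in the log2 ratio turned to 0.28 for Fmod, 0.040 for Prelp and 0.15 for Aspn. With 1 library left out, the genotype difference in the log2 ratio to the collagens ran from -0.10 to 0.22 for Dcn, from -0.18 to 0.28 for Fmod and from -0.38 to 0.014 for Aspn, across 0 in each. Low counts limit Podn, Ogn, Aspn and Fmod, with 15 to 143 per library, and Omd most.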
